A study of Mus musculus with 4 samples.

Results

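The immunoproteasome and MHC class I loading genes are 10 genes: Psmb8, Psmb9, Psmb10, Psme1, Psme2, Tap1, Tap2, Tapbp, B2m and H2-Q10. They were chosen by gene symbol, and their probe sets (groups of short oligonucleotides that measure the same transcript) were taken from the whole table of deposited array values. Of the 10 genes 9 had probe sets of their own, 15 in all, out of 18193 genes and 34945 probe sets with a single gene symbol. Psme2 shared its probe set with Psme2b, and its values are given apart and not counted.

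RNA came from epithelial cells cut by laser out of frozen sections of 4 groups of C57BL/6 mice: germ-free colon, wild type colon, germ-free ileum and wild type ileum, with the colon sampled at its proximal end. Germ-free mice are raised without microbes. The wild type controls carry no stated modification, and no age or sex is given in the labels. A pool of RNA from about 16000 cells, taken from 4 mice, was put on 1 array for each group. The differences below therefore have no replicates and no test, and their precision is limited by the number of arrays. Hematoxylin staining of the sections is mentioned in the labels for the germ-free groups alone, and staining and microbial state cannot be told apart here.

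Proteasomes are barrel-shaped proteases that cut cellular proteins into peptides. In cells exposed to interferon, and constitutively in many immune cells, the catalytic subunits Psmb8, Psmb9 and Psmb10 (also called LMP7, LMP2 and MECL-1) take the places of Psmb5, Psmb6 and Psmb7 and form the immunoproteasome, which yields peptides well suited to MHC class I molecules. Psme1 and Psme2 form the PA28 cap that opens the barrel. Tap1 and Tap2 together pump the peptides into the endoplasmic reticulum, tapasin (Tapbp) holds the empty class I molecule beside that pump, and beta-2 microglobulin (B2m) is the light chain of every classical class I molecule. H2-Q10 encodes a nonclassical class I heavy chain of the mouse, best known as a protein secreted by the liver. Psmb8, Psmb9, Tap1 and Tap2 are neighbours in the class II region of the mouse MHC, and Psmb9 and Tap1 are transcribed in opposite directions from a shared promoter.

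The promoter windows below are shown because interferon-responsive elements are the known control of this gene family, and because Tap1 and Psmb9 share theirs. They are RefSeq sequences from 250 bases before to 50 bases after the annotated start, written 5′ to 3′ on the strand of the gene, and 9 of the 10 members had one. Capitals mark matches, on either strand, to 6 motifs: the core of the interferon-stimulated response element (GAAANNGAAA, where N is any base), the gamma-activated site (TTCNNNGAA), a kappa B type site (GGGNNTTTCC), a CRE-like X2 box (TGACG), the CCAAT box (CCAAT) and the GC box (GGGCGG).
B2m promoter, chr2:122147437-122147736, + strand, GRCm38.p6: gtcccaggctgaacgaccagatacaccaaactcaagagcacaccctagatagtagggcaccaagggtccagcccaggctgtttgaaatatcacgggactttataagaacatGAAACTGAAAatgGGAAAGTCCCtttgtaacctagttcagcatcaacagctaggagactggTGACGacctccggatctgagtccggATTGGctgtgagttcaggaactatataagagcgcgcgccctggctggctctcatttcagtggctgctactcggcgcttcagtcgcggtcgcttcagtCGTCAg
Psme1 promoter, chr14:55578244-55578543, + strand, GRCm38.p6: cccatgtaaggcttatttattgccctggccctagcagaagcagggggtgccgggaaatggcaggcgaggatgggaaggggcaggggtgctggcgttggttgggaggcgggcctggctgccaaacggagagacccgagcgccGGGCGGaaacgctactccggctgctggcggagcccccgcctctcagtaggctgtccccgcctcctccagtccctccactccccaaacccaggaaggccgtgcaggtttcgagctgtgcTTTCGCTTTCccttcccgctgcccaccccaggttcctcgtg
Psmb8 promoter, chr17:34197945-34198244, + strand, GRCm38.p6: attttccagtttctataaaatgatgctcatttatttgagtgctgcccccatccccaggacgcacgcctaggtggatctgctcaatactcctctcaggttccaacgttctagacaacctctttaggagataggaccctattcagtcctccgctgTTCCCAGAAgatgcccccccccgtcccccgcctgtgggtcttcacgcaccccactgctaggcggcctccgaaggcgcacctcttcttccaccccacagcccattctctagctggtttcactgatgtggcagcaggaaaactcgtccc
Tap1 promoter, chr17:34187306-34187605, + strand, GRCm38.p6: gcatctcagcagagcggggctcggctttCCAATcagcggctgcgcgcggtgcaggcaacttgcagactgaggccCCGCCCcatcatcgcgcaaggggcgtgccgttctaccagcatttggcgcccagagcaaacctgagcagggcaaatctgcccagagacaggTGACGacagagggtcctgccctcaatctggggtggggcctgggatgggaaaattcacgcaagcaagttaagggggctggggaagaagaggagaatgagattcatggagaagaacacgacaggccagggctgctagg

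The response element core matched in the B2m window, at positions -139 to -130 from the start, and in the Psme1 window after the start. It was present in 2 of the 9 members with a window, where 3.43% of all 32817 promoter windows of that length held it. The kappa B type letters matched in B2m alone among the members (1.63% of all windows), and the gamma-activated site in Psmb8 alone (8.29% of all windows). The commoner motifs were in 4 members for the X2 box (20.8% of all windows), 4 for the CCAAT box (37.4%) and 5 for the GC box (35.6%). No matches of different motifs overlapped (0 pairs). The Tap1 window and the Psmb9 window, read on opposite strands, shared 275 bases and therefore the same CCAAT, GC and X2 box letters. The windows of Psmb10 and H2-Q10 held none of the 6 motifs. A match of letters is a description of the window and not a measured binding site.

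**Figure D1:**
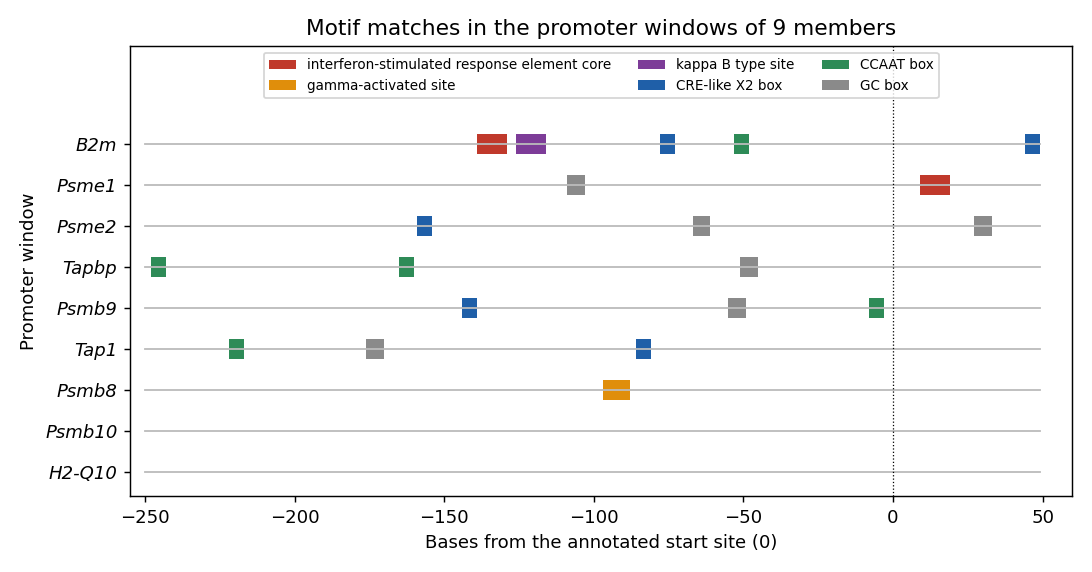
Positions of matches to 6 motifs in the promoter windows of 9 members, in bases from the annotated start (0), with 1 line per gene and coloured blocks for matches on either strand; of the windows for Psme2 the upstream one is drawn. The response element core (red) appears in B2m and Psme1 and the gamma-activated site (orange) in Psmb8, while the lines of Psmb10 and H2-Q10 are empty.

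All values below are probe set intensities after quantile normalization, in which the arrays are given the same distribution of values. Intensities under a floor of 62.4, the median of all values, were set to that floor before a change was taken, and a gene counted as measured if at least 1 of the compared arrays was above it. The brightest probe set stood for its gene. A change is the log2 value of the germ-free array minus that of the wild type array, and a gene was called at 2-fold. Different probe sets have different brightness, so intensities are compared between arrays and not between genes. The only error that can be given is how far probe sets for 1 gene differ. In 2217 genes that had 2 or more bright probe sets, the changes of the brightest 2 had an SD of 0.29 log2 for the colon pair and 0.21 log2 for the ileum pair. Variation among mice is not in that figure.

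Most members were dimmer on the germ-free arrays, in both gut regions, and by less than 2-fold. In the colon 8 of the 9 members measured had a change below 0, with a median of -0.47 log2, where 51.3% of all 11746 measured genes were below 0 and their median was -0.01. In the ileum 8 of 9 were also below 0, with a median of -0.25 against 0.03 for all 11750 measured genes, of which 45.1% were below 0. Fewer cells of a type and less RNA per cell cannot be told apart in such pooled RNA. A single member passed 2-fold in each region, H2-Q10 in the colon and Psmb8 in the ileum. The share of all genes at least 2-fold lower was 3.23% in the colon and 0.698% in the ileum, so a count of 1 in 9 is small by itself. No member was at least 2-fold higher (0 of 9 in either region, where 1.29% of all genes were in the colon and 0.23% in the ileum). The balance of colon calls over all genes depended on the scaling, with 152 genes higher and 379 lower here, 296 and 275 in the values as deposited, and 116 and 528 with arrays scaled to a common median. That last scaling put the median of all colon genes at -0.16 log2 and that of the members at -0.68, and as deposited they were 0.09 and -0.42.

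Set against the SD between probe sets, 7 of the 9 members were lower by more than that SD in each region. The same held for 24.7% of all measured genes in the colon and 18.8% in the ileum. Several members were only a little past the SD. In the ileum, with an SD of 0.21, these were B2m (-0.22), Psmb9 (-0.23), Tapbp (-0.25) and Psmb10 (-0.27). In the colon, with an SD of 0.29, Tapbp (-0.32) was. That SD came from probe sets with a mean above the 75th percentile of all values (258.6). Psmb8, Tap1, Tap2 and H2-Q10 read below that brightness on at least 1 array, so the SD need not hold for them. Of the 9 members 7 were lower in both regions, where 24.4% of the 11065 genes measured in both were. For Psmb8, Psmb9, Psmb10, Tap2 and B2m both germ-free arrays lay below both wild type arrays, so 5 of 9 members were split by microbial state whatever the region, against 10.5% of the genes measured in both. No margin was required. The nearest readings were 826 in germ-free ileum against 870 in wild type colon for Psmb9, and 8041 against 9159 on the same arrays for B2m. These shares describe 4 arrays, and the members are not independent of each other.

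**Figure D2:**
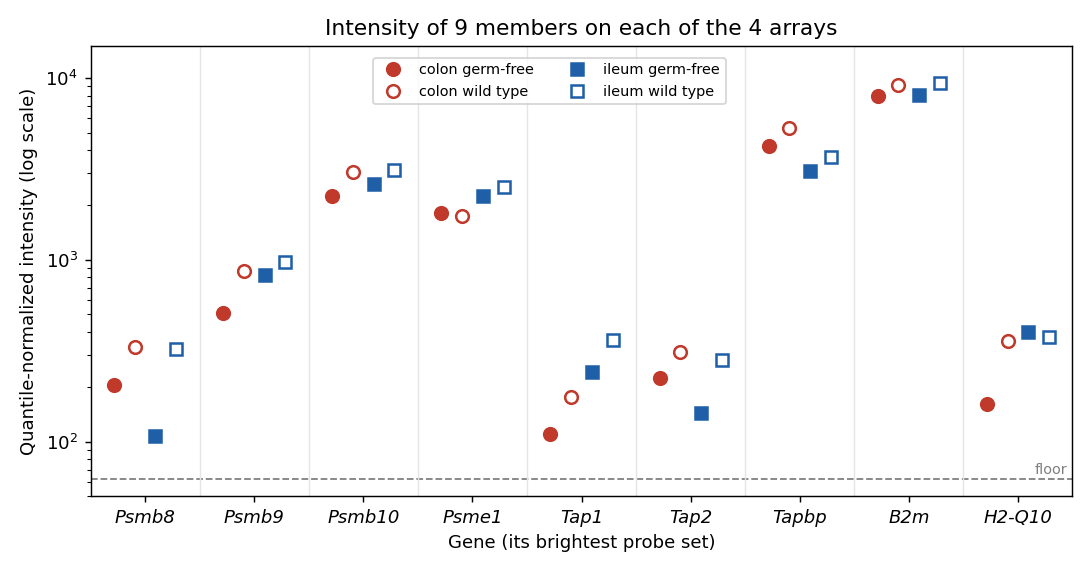
Quantile-normalized intensity (log scale) of the brightest probe set of 9 members on the 4 arrays, with filled symbols for germ-free, open symbols for wild type, circles for colon and squares for ileum; the dashed line is the floor of 62.4. Germ-free symbols sit below their wild type partners except for Psme1 in colon (1812 in germ-free against 1739 in wild type) and H2-Q10 in ileum (401 in germ-free against 377 in wild type).

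Among the catalytic subunits, Psmb8, the immunosubunit with chymotrypsin-like activity, had the largest drop among the 9 members in the ileum. It read 204 in germ-free colon against 330 in wild type colon, and 107 in germ-free ileum against 324 in wild type ileum. The wild type arrays were nearly level, and the germ-free ileum array stood apart at the low end. The change was -0.69 log2 in the colon and -1.59 in the ileum (3.02-fold lower), the 24th lowest of the 11750 genes measured there. As deposited, Psmb8 read 101 in germ-free ileum against 310 in wild type ileum. A second Psmb8 probe set was below the floor on all 4 arrays, with an unfloored change of -0.21 in the colon and -0.38 in the ileum, and when the probe sets of a gene were averaged the ileal change of Psmb8 was -0.80 and no longer past 2-fold. With the floor at the 75th percentile of all values it was -0.32.

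Psmb9 read 511 in germ-free colon against 870 in wild type colon, and 826 in germ-free ileum against 972 in wild type ileum. Here the colon array was the low one, with a change of -0.77 in the colon and -0.23 in the ileum, close to the spread between probe sets in the ileum. Psmb10 read 2248 in germ-free colon against 3020 in wild type colon and 2599 in germ-free ileum against 3134 in wild type ileum. Its changes were -0.43 and -0.27. The 3 immunosubunits were thus lower in both regions, with the larger drop in the ileum for Psmb8 and in the colon for Psmb9 and Psmb10; these regional differences were not tested.

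Each immunosubunit was set against the constitutive subunit it replaces. Psmb8 and Psmb9 were lower relative to their own counterparts in both regions, and Psmb10 in the colon only. Psmb5, the counterpart of Psmb8, had a change of -0.33 in the colon and -0.28 in the ileum, so Psmb8 was lower than its counterpart by a further -0.36 and -1.31 log2. With the probe sets of a gene averaged these differences were -0.015 and -0.52. The counterpart of Psmb9 is Psmb6, which had changes of 0.04 in the colon and 0.05 in the ileum, leaving Psmb9 lower by -0.81 and -0.28. For Psmb10, which had the smaller drop in the ileum, the difference from its counterpart Psmb7 was -0.30 in the colon and 0.25 in the ileum, where Psmb7 read 504 in germ-free ileum against 723 in wild type ileum. A ratio of this kind shows unequal change and not which subunit moved. The SD between probe sets (0.29 log2 in the colon, 0.21 in the ileum) is for 1 gene, and a difference of 2 genes' changes is less certain. The differences of -0.36, -0.30, -0.28 and 0.25 were little larger in size than that SD, so their directions are uncertain.

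Psme1, the alpha subunit of the PA28 cap, was the member that differed least in the colon, while H2-Q10 did in the ileum. It read 1812 in germ-free colon against 1739 in wild type colon, and 2248 in germ-free ileum against 2523 in wild type ileum. The changes of 0.06 and -0.17 log2 were both within the spread between probe sets, and the sign in the colon turned to -0.16 when arrays were scaled to a common median instead. The probe set shared by Psme2 and Psme2b read 1789 in germ-free colon against 2434 in wild type colon and 1821 in germ-free ileum against 2390 in wild type ileum. Both germ-free values were lower, by -0.44 and -0.39 log2, but which of these genes it measured cannot be said.

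The transporter subunits were lower on both germ-free arrays. Tap1 read 110 in germ-free colon against 175 in wild type colon, and 242 in germ-free ileum against 362 in wild type ileum, changes of -0.67 and -0.58. Averaged over its 4 probe sets, the Tap1 changes were -0.17 and -0.22. It was dimmer in colon than in ileum in either state. Its other 3 probe sets were at or near the floor: 2 were below it on all arrays, and the third was above it on the wild type ileum array alone, reading 52.5 in germ-free colon against 38.2 in wild type colon and 43.9 in germ-free ileum against 76.5 in wild type ileum.

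Tap2 read 223 in germ-free colon against 310 in wild type colon, and 144 in germ-free ileum against 280 in wild type ileum. Like Psmb8, it was lowest on the germ-free ileum array, with changes of -0.47 and -0.96. The ileal change was just short of 2-fold (1.94-fold) and the 94th lowest of the measured genes. With the floor at the 75th percentile it was -0.12. Tap2 had a single probe set, so no second reading bears on it.

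Tapasin had small changes in the same direction. Tapbp read 4229 in germ-free colon against 5296 in wild type colon, and 3080 in germ-free ileum against 3657 in wild type ileum, changes of -0.32 and -0.25. With arrays scaled to a common median the colon change of Tapbp was -0.65. A second, dim probe set of Tapbp was lower too, by -0.38 in the colon and -0.71 before the floor in the ileum, where it read 43.8 on the germ-free array.

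B2m gave 2 bright readings. The brighter probe set read 7972 in germ-free colon against 9159 in wild type colon, and 8041 in germ-free ileum against 9336 in wild type ileum, changes of -0.20 and -0.22. The other read 5362 in germ-free colon against 6035 in wild type colon and 5287 in germ-free ileum against 7184 in wild type ileum, changes of -0.17 and -0.44. All 4 differences were negative, and the colon differences were smaller than the spread between probe sets. With arrays scaled to a common median, where all colon genes had a median of -0.16, the colon change of B2m was -0.53 and past that spread.

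H2-Q10 had another pattern. It read 161 in germ-free colon against 355 in wild type colon, and 401 in germ-free ileum against 377 in wild type ileum. The germ-free colon array alone was low and the other arrays lay close together. Its change was -1.14 in the colon (2.20-fold lower, the 255th lowest of the 11746 measured genes) and 0.09 in the ileum. In the values as deposited the colon change was -0.92, and with the floor at the 75th percentile it was -0.46, so the call at 2-fold rests on the scaling and on the floor. H2-Q10 rests on 1 probe set, and class I heavy chains are close in sequence, so its gene assignment is uncertain.

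**Figure D3:**
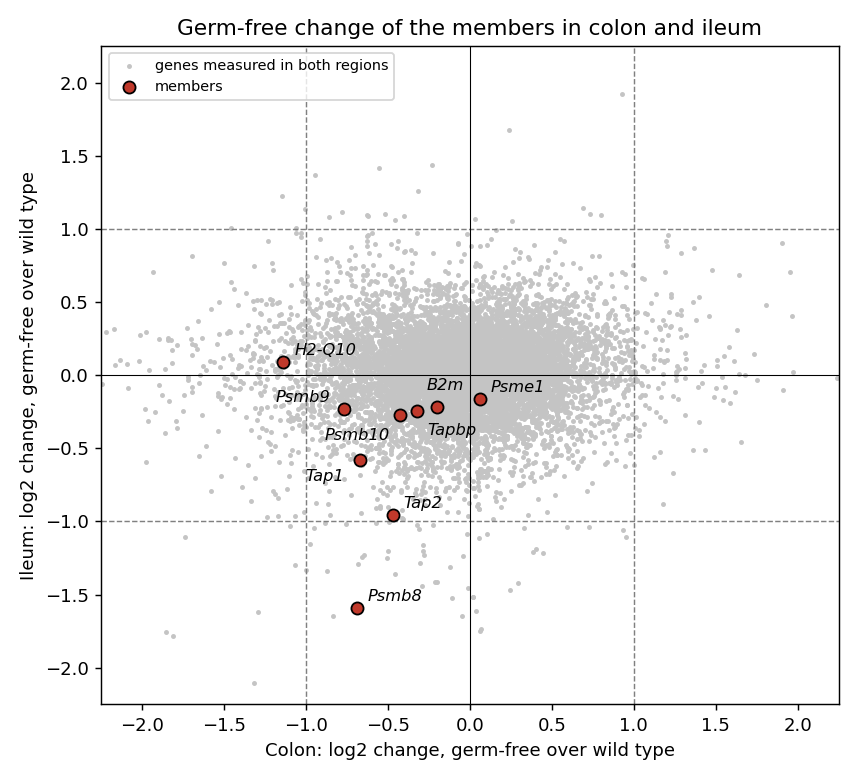
Log2 change, germ-free over wild type, in colon (x axis) and ileum (y axis) for 9 members (red, labelled) and for the genes measured in both regions (grey); dashed lines mark 2-fold, and 25 genes lie outside the axes. Of the members 7 lie in the lower left, below 0 on both axes, Psmb8 is past the ileum line at -1.59 and H2-Q10 past the colon line at -1.14.

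The regional order of the levels differed from member to member. Between the wild type arrays Tap1 was 2.07-fold higher in ileum, and no other member was past 2-fold. Of 12000 measured genes, 6.04% were higher in ileum by that much and 5.93% lower. With arrays scaled to a common median the Tap1 difference was 0.99 log2, just under the call, and averaged over its probe sets it was 0.33. Psme1 was higher in ileum by 0.54 log2 and Tapbp lower by -0.53. Psmb8, Psmb9, Psmb10, Tap2, B2m and H2-Q10 had wild type differences between -0.14 and 0.16 log2, within the SD of 0.29 between probe sets for that pair. Between the germ-free arrays Tap1 (2.21-fold) and H2-Q10 (2.48-fold) passed 2-fold upwards in ileum, 2 of 9 members, where 7.37% of 11986 measured genes did. No member passed it downwards (0 of 9, 5.88% of genes). That balance also depended on scaling, with 883 genes higher and 705 lower here and 627 and 1001 in the values as deposited. Psmb8 was lower in germ-free ileum than in germ-free colon by -0.93 log2 and Tap2 by -0.63, while Psmb9 was higher by 0.69.

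The colon change minus the ileum change was -1.23 log2 for H2-Q10, the only member past 1 log2 (4.98% of the genes measured in both regions were lower by that much in colon). It was 0.90 for Psmb8, 0.49 for Tap2 and -0.53 for Psmb9, and between -0.16 and 0.23 for the remaining 5 members. With 1 array per group these are differences of differences with no residual spread to test them.

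The profiles of the members over the 4 arrays were compared by Euclidean distance between log2 values centred on each gene's mean. The closest members were Psmb10 and B2m, at a distance of 0.20 log2, and Psmb9 and Psmb10 (0.38). Psmb8 and Tap2 were at 0.48. Psmb9 and Tap1, which share a promoter window, were at 0.71, and Psmb8 and Tap1 were farthest apart at 1.73. Of 7421 other bright genes, the nearest to the median profile of the members were Cops6 (0.12), a COP9 signalosome subunit, Mta3 (0.12), Eloa (0.12), Prpf6 (0.12), Pdxdc1 (0.13) and Ddx24 (0.13). Nearest to Psmb8 were Srgn (0.30), the serglycin of granules in blood cells, Edn3 (0.38), an endothelin, and Cyba (0.44), a subunit of the NADPH oxidase. Over 4 arrays many genes lie close by, and the distances are given as a description.

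The other core subunits and the regulatory particle had medians near those of all genes, and the constitutive catalytic subunits a lower one in the ileum. The 16 other core subunits and assembly factors had 0 genes past 2-fold in either region, with medians of -0.02 in the colon and 0.02 in the ileum. The members of that list with the largest differences were the assembly chaperone Psmg4, at 202 in germ-free colon against 298 in wild type colon and 413 in germ-free ileum against 288 in wild type ileum, Psmb3 (changes of 0.22 and 0.35) and Psma1 (-0.04 and -0.48). The regulatory particle and other activators, 20 genes measured, also had 0 past 2-fold, with medians of -0.06 and 0.04. Psmd4, a ubiquitin receptor of the regulatory particle, was the largest difference there in the colon (790 in germ-free against 1436 in wild type, -0.86) and Psmd7 in the ileum (129 in germ-free against 229 in wild type, -0.83). Psme3, the third PA28 family member, which forms a cap of its own in the nucleus, had changes of -0.60 and 0.31. The 3 constitutive catalytic subunits had medians of -0.13 and -0.28, the ileal one slightly below that of the members (-0.25).

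**Figure D4:**
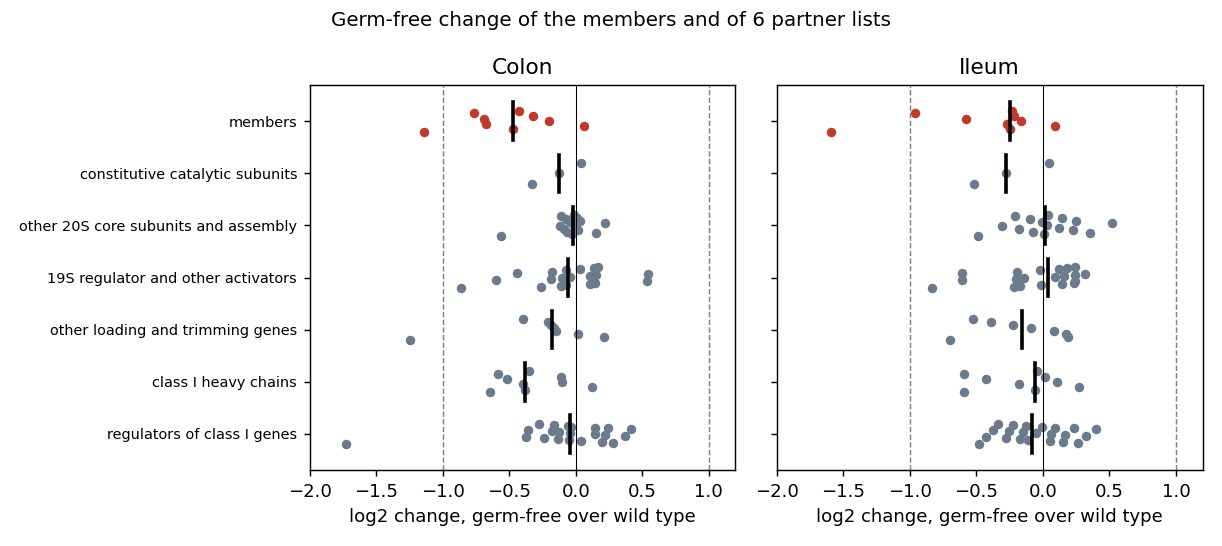
Log2 change, germ-free over wild type, of each measured gene (points) in the members and in 6 partner lists, for colon (left) and ileum (right), with a black bar at each list's median and dashed lines at 2-fold. The member medians are -0.47 and -0.25, those of the other core subunits -0.02 and 0.02, and those of the 3 constitutive catalytic subunits -0.13 and -0.28.

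Class I heavy chains also lay mostly below 0. Of 24 listed 13 had probe sets of their own and 9 were measured, with 0 past 2-fold. Their median was -0.38 in the colon, with 8 of 9 below 0, and -0.06 in the ileum, with 6 of 9 below 0. The shares of all measured genes below 0 were 51.3% in the colon and 45.1% in the ileum. With arrays scaled to a common median the colon value was -0.71. H2-D1, a classical class I chain, read 4577 in germ-free colon against 6551 in wild type colon and 2963 in germ-free ileum against 4473 in wild type ileum, changes of -0.52 and -0.59. Fcgrt, the neonatal Fc receptor chain, which also pairs with B2m, had changes of -0.65 and -0.59. Cd1d1, which presents lipids, had changes of -0.59 and 0.10. As for H2-Q10, the closeness in sequence of class I heavy chains leaves the gene assignment of H2-D1 uncertain. The readings of this list need not be independent of each other.

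The other loading and trimming genes held 1 gene of 8 at least 2-fold lower in the colon and 0 in the ileum, with medians of -0.18 and -0.16. That gene was Ubd, the ubiquitin-like modifier FAT10, at 47.4 in germ-free colon against 148 in wild type colon, at least 2.37-fold lower because the germ-free value was below the floor. In the ileum Ubd was near the floor on both arrays, at 71.3 in germ-free and 54.7 in wild type. Regulators of class I genes, 22 of 26 measured, had 1 gene at least 2-fold lower in the colon and 0 in the ileum, with medians of -0.05 and -0.08. It was Ifnar2, a chain of the type I interferon receptor, at 40.2 in germ-free colon against 207 in wild type colon (at least 3.32-fold lower) and 128 in germ-free ileum against 102 in wild type ileum. Of all measured genes 3.23% were at least 2-fold lower in the colon and 0.698% in the ileum. A count of 1 in either list is therefore small by itself.

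The captured cells carried epithelial markers on every array, and all 10 listed markers were above the floor on all 4. Their summed intensity was 89492 in germ-free colon against 82441 in wild type colon, and 91960 in germ-free ileum against 96525 in wild type ileum. Of 14 intraepithelial and T lymphocyte markers 12 matched a gene and 5 were above the floor on an array. Cd3d, Cd3e, Cd3g, Cd247, Cd8b1, Cd2 and Cd4 were above it on none. The summed intensity of the 12 was 904 in germ-free colon against 1370 in wild type colon, and 1334 in germ-free ileum against 2053 in wild type ileum. Of the members of that list, Cd8a was 2.91-fold lower in germ-free colon, the granzyme Gzma at least 2.46-fold lower in germ-free colon and 3.08-fold lower in germ-free ileum, and Gzmb at least 2.04-fold lower in germ-free ileum. Other values of the list differed less. Cd8a had an ileal change of -0.14 log2 (512 in germ-free against 565 in wild type). In the colon Ptprc had -0.01 and Itgae -0.20, while in the ileum Ptprc had -0.87 (250 in germ-free against 458 in wild type) and Itgae -0.36. All 5 measured markers of the list were below 0 in each region, with medians of -0.23 in the colon and -0.87 in the ileum. Of all measured genes 51.3% were below 0 in the colon and 45.1% in the ileum.

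Markers of other cell types, some of which express these genes, were lower in sum on the germ-free arrays, by amounts that varied widely and with single markers that went the other way. The 8 plasma and B cell markers with a gene, of 10 listed, summed to 1106 in germ-free colon against 6791 in wild type colon and 2871 in germ-free ileum against 12614 in wild type ileum, with 5 above the floor on an array and Cd79a, Ms4a1 and Tnfrsf17 on none. The 13 myeloid markers summed to 2382 in germ-free colon against 2673 in wild type colon and 3466 in germ-free ileum against 4210 in wild type ileum, with 9 above the floor on an array and Cd68, Itgax, Aif1 and C1qa on none. The lower myeloid sum in germ-free ileum rested on Lyz2 alone, at 888 in germ-free against 1791 in wild type. That gap was larger than the gap in the sum, so the other myeloid markers together were not lower there. The 9 endothelial markers summed to 543 in germ-free colon against 1073 in wild type colon and 755 in germ-free ileum against 787 in wild type ileum, with 6 above the floor on an array and Pecam1, Esam and Vwf on none. The 13 fibroblast and smooth muscle markers summed to 4323 in germ-free colon against 4594 in wild type colon and 4823 in germ-free ileum against 7183 in wild type ileum, with 11 above the floor on an array and Myh11 and Cnn1 on none. Most of the plasma and B cell sum came from Igha (501 in germ-free colon against 4609 in wild type colon) and Jchain (197 in germ-free colon against 1549 in wild type colon), while Mzb1 had a colon change of -0.07. In the colon Pdgfrb (1.23 log2), Cd14 (0.98) and Vim (0.38) were higher on the germ-free array, and in the ileum Csf1r (0.35) and Adgre1 (0.41) were. Of these, Cd14 (-0.53) and Vim (-1.21) were lower in the ileum, and Adgre1 (-1.10) in the colon. Below 0 in the colon were 6 of 8 measured myeloid, 5 of 5 endothelial and 5 of 8 fibroblast and smooth muscle markers. In the ileum they were 7 of 9, 4 of 6 and 9 of 11. Of all measured genes 51.3% were below 0 in the colon and 45.1% in the ileum, and with so few markers some of these counts are near those shares. Kdr (-1.49) and Plvap (-1.02) passed 2-fold in the colon, and Tagln (-1.97), Des (-1.22), Dcn (-1.20) and Lyz2 (-1.01) in the ileum. Tagln, Des and Dcn were below the floor in germ-free ileum, at 26.2, 61.9 and 27.8, so their drops were at least that large. The part of these cell types in the members' lower values was not tested.

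Measures of RNA quality moved with the germ-free state too. The 5' over 3' signal of the Gapdh control, a measure of how intact the RNA and its copies were, shifted by -0.48 log2 in the colon and -1.10 in the ileum. That of Actb shifted by -0.12 and -1.20. For pyruvate carboxylase it shifted by -0.43 and -0.28, so the ileal shift differed among the 3 controls. The 18S ribosomal RNA control shifted by -1.23 and -0.93. The hybridization spikes, which do not measure the quality of the sample RNA, shifted in opposite directions, by 0.13 and -0.27. All these shifts are in the values as deposited. The part of RNA quality in the members' values was not tested.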

How the data were processed

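Gene expression was measured on 4 Affymetrix mouse arrays, 1 per group, from laser-captured epithelial cells of 4 pooled mice each. Amplification started from 40 ng of total RNA and took 2 rounds, per the labels' protocols and the design text. The authors deposited linear probe set intensities, for which the design text names dCHIP2004; its options were not given in the sources used here. Of 45101 probe sets 64 controls were set aside.

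Computed here, with numpy 2.4.6, pandas 2.3.3 and scipy 1.17.1 in Python 3.11.15: values below 1 were set to 1, log2 values were quantile-normalized, and the floor, calls and brightest probe set were applied as described above. Probe sets were named by the platform annotation, with symbols checked through a RefSeq table of assembly GRCm38.p6 (34741 identifiers matched, 0 symbols changed); 932 probe sets with several symbols and 9160 unnamed ones were not used for genes. Simulated arrays with known changes were used to test these steps. With 1 array per group no p-value was computed.

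The members, gene lists, motifs and settings were chosen with earlier results of these data known. All members are named. Of each partner list the genes past 2-fold are named, otherwise those with the largest change (2 per region). The genes of nearest profile were the 6 nearest to the median and the 3 nearest to Psmb8, among genes brighter than the pooled 75th percentile on an array. Some marker genes past 2-fold are given as examples, chosen after their values were seen. Alternatives were other scalings, floors and ways of choosing a probe set.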

Additional observations from a re-analysis of the deposited data

Results flagged for a closer look

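Among the members and the 6 partner lists, 4 genes had changes of opposite sign in the 2 regions that were at least 1 log2 apart. In each of them the colon change was the lower one. By list they were 1 of 9 members and 1 of 16 other core subunits and assembly factors. The others were 1 of 8 other loading and trimming genes and 1 of 22 regulators of class I genes. The 3 constitutive catalytic subunits, 20 genes of the regulatory particle list and 9 heavy chains held 0. Of all 11065 genes measured in both regions, 4.98% were lower in colon by that much, whatever their signs. A count of 1 in such a list is small by itself. The marker lists are not part of the count of 4 genes. With 1 array per group the differences between regions were not tested. The ileal changes of H2-Q10 (0.09) and Ubd (0.19) were within the SD of 0.21 log2 between probe sets, and those of Psmg4 (0.52) and Ifnar2 (0.32) were under 2-fold. That SD came from bright probe sets, and Ubd was near the floor in the ileum. H2-Q10 had a colon change minus ileum change of -1.23 log2, from 161 in germ-free colon against 355 in wild type colon and 401 in germ-free ileum against 377 in wild type ileum. For Psmg4, a chaperone of core particle assembly, the difference was -1.08 log2, and its readings were 202 in germ-free colon against 298 in wild type colon and 413 in germ-free ileum against 288 in wild type ileum. Ubd differed by -1.44 log2 between regions and Ifnar2 by -2.05 log2. Both had a germ-free colon value below the floor, at 47.4 for Ubd and 40.2 for Ifnar2.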

How the results depend on the processing

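Each result was recomputed under 7 alternatives, and 0 of the called values changed sign. Values that were not called did: the colon change of Psme1 went from 0.06 to -0.16 with median scaling. The median of all colon genes went from -0.01 to 0.09 as deposited. The balance of colon calls over all genes also turned as deposited, to 296 higher and 275 lower. The cause of the shifts given here was not tested, except that a higher floor or averaging of probe sets shrinks changes of dim probe sets by construction, and a lower floor lets dim genes in. The count of members at least 2-fold lower in germ-free colon was 0 with values as deposited and 0 with a floor at the 75th percentile, where H2-Q10 had -0.92 and -0.46 log2. In germ-free ileum it was 0 with that floor (Psmb8 at -0.32) and 0 with the mean of probe sets (Psmb8 at -0.80). Of members at least 2-fold higher in ileum, the wild type arrays had 0 with median scaling, 0 with the 75th percentile floor and 0 with the mean of probe sets, and the germ-free arrays had 1 as deposited, 0 with that floor and 1 with the mean, while as deposited 1 (Psmb8) was at least 2-fold lower. Genes at least 2-fold lower in germ-free colon numbered 768 with a floor at the 25th percentile, 136 at the 75th, 1634 with none and 189 with the mean of probe sets, and genes higher 409, 50, 1230 and 87, with 296 as deposited. In germ-free ileum the lower genes numbered 233, 22, 970 and 49 under those same settings and the higher ones 145, 5, 886 and 15. The class I heavy chain median in colon was -0.71 with median scaling. The change of Psmb8 minus that of Psmb5 was -0.020 in colon and -0.045 in ileum with the 75th percentile floor, and -0.015 and -0.52 with the mean of probe sets. Over all alternatives the 8 measured members other than Psme1 stayed below 0 in colon and the 8 other than H2-Q10 in ileum, save that Tap1 was not measured in colon with the 75th percentile floor. No paired analysis was possible because each group has 1 array, so no groups share 2 replicate numbers; a fit that takes the 2 regions as replicates of microbial state was not run. Depth in the sense of signal over background limits Psmb8, Tap1, Tap2 and H2-Q10, the dimmest members.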
